A study of Homo sapiens with 33 samples.

Results

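The transforming growth factor beta (TGF-beta), activin and bone morphogenetic protein (BMP) signalling genes were followed through gonadal differentiation of human embryonic stem cells with and without activation of FOXL2. The members were 49 genes named by symbol, of 58735 genes in the count table. They comprised 21 ligand genes, 11 genes of secreted antagonists or co-factors, 10 receptor genes, 3 genes of inhibitory SMADs or decoys, and the 4 ID genes, which are transcriptional targets of BMP signalling.

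Bulk RNA-seq was available for 33 libraries in 11 groups of 3 technical replicates, all from 1 differentiation of a single clone, number 24, of H9-DDdCas9VP192-FOXL2. H9 is an established human embryonic stem cell line. In all groups the cells carried a transcriptional activator (a Cas9 without nuclease activity, fused to VP192) under a doxycycline-inducible promoter and a destabilising domain that trimethoprim (TMP) stabilises, with guides to the FOXL2 promoter. The groups were day 4, and on alternate days from day 6 to day 14 both non-induced cells (CTRL, no DOX and no TMP) and induced cells (IND, doxycycline, DOX, and TMP from day 4). All groups shared the media of the first days, which held agents of the pathway itself (activin A, BMP7 and the BMP type I receptor inhibitor dorsomorphin) beside the WNT agonist CHIR-99021. No group received DOX and TMP without activation of FOXL2, so the agents and FOXL2 cannot be told apart. Since the replicates were wells of 1 differentiation, the p-values below cover variation from well to well, not from differentiation to differentiation.

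Ligands of this family are secreted dimers that bring together type II and type I serine/threonine kinase receptors. TGF-beta, activin and NODAL receptors phosphorylate SMAD2 and SMAD3. The receptors of BMPs and of some GDFs phosphorylate SMAD1, SMAD5 and SMAD9. The phosphorylated SMADs enter the nucleus with SMAD4. Inhibin and activin subunits are products of gonadal supporting cells, and BMP ligands and their antagonists pattern the mesoderm from which the gonad arises.

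Total counts were between 23940837 and 51912815 per library, with a median of 41420455. FOXL2 had between 147.5 and 577.1 CPM (counts scaled to the effective library size) in IND, and it did not exceed 0.388 CPM in the other groups. The floor was set at 3 counts, and a gene counted as at the floor in a group if no library exceeded it, which corresponds to 0.0564 to 0.13 CPM and covers counting error only. Within the day 4 group, replicate 3 had 1.14% mitochondrial counts, against 3.33% and 4.28% in the others. Day 10 IND replicate 2 stood apart. Its mean correlation with the other replicates of its group was 0.92, against 0.954 for each of those replicates and 0.97 to 0.989 in the other groups, and 0.691% of its counts were mitochondrial, against 1.14% to 4.28%. The marker check of the tissue covered 7 coelomic epithelium and gonad markers, among them NR5A1 and LHX9, which mark the gonad. At day 4 WT1, LHX9, UPK1B and NR5A1 were at the floor, and no marker of the list was from day 8 to day 14. A gene leaves the floor once a single library exceeds 3 counts. At day 8 only 5 of the 7 had enough counts to be tested between IND and CTRL.

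The promoter windows of the members were searched for 3 motifs on both strands, to show sequence around the starts of genes that changed with induction. RefSeq windows (GRCh38.p14) of 300 bases, from 250 before to 50 after a RefSeq transcript start, matched 40 of the 49 members in 60 windows. The forkhead core TGTTTAC was found in 1 member window, of GDF15, and in 3.42% of 35116 windows of all genes. The BMP response core GGCGCC was found in 15 of the 60 member windows and in 19.2% of all windows. The palindromic SMAD element GTCTAGAC was found in 1 member window, of SMAD6, and in 0.202% of all windows. GGCGCC and GTCTAGAC read the same on both strands, and no motif holds another. A match is a description of letters and not of binding. Shown are stretches before a RefSeq transcript start, which need not be the gene start of the annotation, of SMAD6 (chr15:66701986-66702235, plus strand), BAMBI (chr10:28677271-28677351, plus strand), BMP4 (chr14:53955051-53955300, minus strand) and BMPER (chr7:33904665-33904914, plus strand, the first of its windows), in which capitals mark GTCTAGAC for SMAD6 and GGCGCC for the others. SMAD6 is shown for the rare element, and the other 3 because their difference between IND and CTRL varied between days. The BMP4 and BMPER stretches lie inside the annotated gene, downstream of its first start. The BAMBI stretch was cut to 81 of 250 bases, since the rest is annotated exon, and its last 10 bases are exonic. The SMAD6 and BMPER stretches hold 8 and 4 exonic bases. The GREM1 window also held GGCGCC, but lies in annotated exons and is not printed.
SMAD6: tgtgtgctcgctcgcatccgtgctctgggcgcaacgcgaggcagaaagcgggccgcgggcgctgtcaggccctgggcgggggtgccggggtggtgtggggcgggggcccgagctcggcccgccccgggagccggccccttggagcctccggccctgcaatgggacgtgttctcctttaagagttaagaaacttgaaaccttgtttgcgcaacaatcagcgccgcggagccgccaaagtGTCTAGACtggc
BAMBI: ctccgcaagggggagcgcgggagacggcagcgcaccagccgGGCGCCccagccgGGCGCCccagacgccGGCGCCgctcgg
BMP4: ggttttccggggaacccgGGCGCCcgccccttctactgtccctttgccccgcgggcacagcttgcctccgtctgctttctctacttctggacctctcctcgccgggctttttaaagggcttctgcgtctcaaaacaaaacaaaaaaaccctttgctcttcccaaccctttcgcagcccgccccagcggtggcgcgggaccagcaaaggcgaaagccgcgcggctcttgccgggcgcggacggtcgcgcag
BMPER: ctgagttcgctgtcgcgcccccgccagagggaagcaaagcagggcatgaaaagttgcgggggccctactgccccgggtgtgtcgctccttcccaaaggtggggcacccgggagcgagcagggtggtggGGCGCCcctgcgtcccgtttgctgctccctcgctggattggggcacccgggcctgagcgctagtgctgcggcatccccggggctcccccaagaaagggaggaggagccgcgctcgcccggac

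Per length, on the deposited FPKM scale averaged over all libraries, the levels of the members differed widely. The highest were the BMP target genes ID3 at 130.4 FPKM and ID1 at 108.8 FPKM, and FSTL1, a secreted follistatin-like protein, at 105.8 FPKM. Among the ligand genes BMP4 was highest with 49.8 FPKM, followed by BMP5 with 26.9, TGFB1 with 25.8 and TGFB2 with 18.1 FPKM. Among the receptors the TGF-beta type I receptor TGFBR1 was highest with 24.3 FPKM, followed by the activin type I receptor ACVR1B with 13.2 and the activin type II receptor ACVR2B with 10.8 FPKM. The lowest members were INHBB with 0.0607, LEFTY1 with 0.0644 and GDF3 with 0.0866 FPKM. In 46 of the 49 members at least 1 group reached a mean of 1 CPM, and in 38 all 33 libraries had more than 3 counts.

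The comparison of CTRL with day 4, the intermediate mesoderm stage of the protocol, shows how the members changed later without induction (DIFF). Cell type markers shifted too. From day 4 to day 14 CTRL their mean sums went from 76.1 to 157.1 CPM (intermediate mesoderm) and 55.8 to 526.6 CPM (coelomic epithelium and gonad). They rose from 44.6 to 670.5 CPM (neuron) and 133.7 to 711.1 CPM (neural crest and glia), and fell from 319.9 to 145.8 CPM (muscle). The part of these shifts was not tested. At day 14, 21 members were higher and 12 lower than at day 4, of 45 tested with edgeR's quasi-likelihood test at an adjusted p under 0.05, beside 47.6% of all genes tested (24.6% higher, 22.9% lower). At day 6, 10 members were higher and 4 lower of 46, beside 21.6% of all genes (11% higher, 10.6% lower). At day 8, 20 were higher and 9 lower of 46, beside 37.1% (18.1% higher, 18.9% lower). At day 10, 21 were higher and 13 lower of 46, beside 45.1% (23.1% higher, 22% lower). At day 12, 23 were higher and 13 lower of 46, beside 48.1% (24.4% higher, 23.8% lower). The median log2 fold change of the members at day 14 was 0.35, and that of all genes -0.002. The calls of 14 members had the same direction at all 5 days. TGFB2, TGFB3, GDF6, LEFTY2, TGFBR1, TGFBR3, ACVR2A, SMAD7, ID2 and ID3 were higher, and BMP2, BMP6, CHRD and GREM1 were lower. The 5 comparisons share the day 4 libraries, so their calls are not independent. Calls with the same direction at all 5 days were not counted for all genes. The 14 members thus have no share of all genes beside them. Without day 4 replicate 3, 5673 of 18906 genes tested were called at day 6, against 3963 of 18310 with it.

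**Figure D1:**
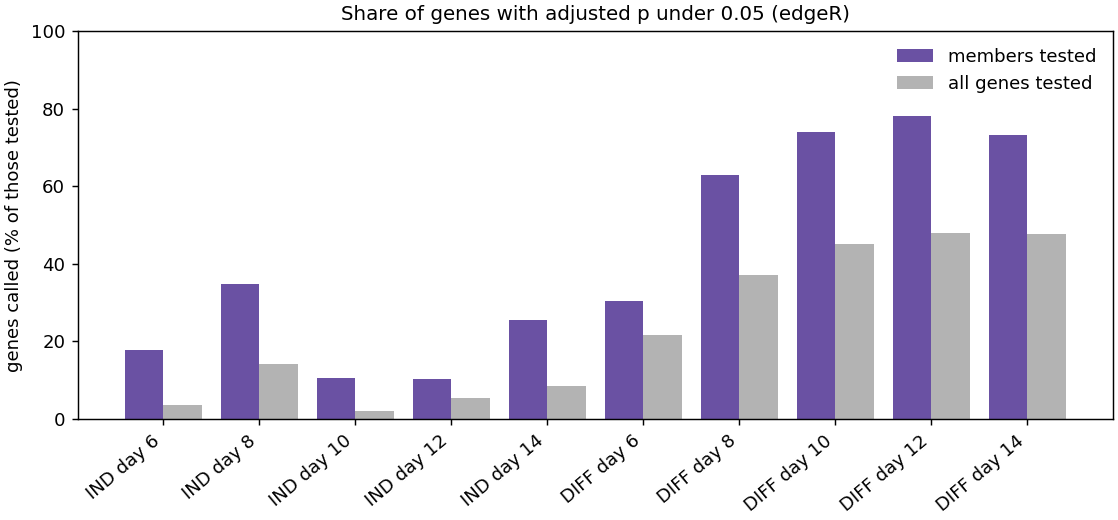
Share of genes called (y axis, % of those tested, adjusted p under 0.05 with edgeR) in each comparison (x axis) for the members (purple) and all genes tested (grey), where IND is IND against CTRL of the same day and DIFF is CTRL against day 4. In the DIFF comparisons the grey share reached 48.1% at day 12, and in the IND comparisons it was largest at day 8 with 14.2%.

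Of the members called at day 14, the ligand genes TGFB3, INHBA and TGFB2 had the largest log2 fold changes against day 4. TGFB3, a TGF-beta isoform, had 0.436, 0.347 and 0.0646 CPM in the day 4 libraries and 29.8, 26.5 and 28.4 CPM in the day 14 CTRL libraries. All CTRL libraries from day 6 lay above all day 4 libraries, and the log2 fold change at day 14 was 6.66 ± 0.37 (SE, adjusted p = 2.08e-06, edgeR). INHBA, the activin A subunit, had 0.0364, 0.381 and 0.226 CPM at day 4 and 19.6, 12.5 and 16.8 CPM in the day 14 CTRL libraries. The groups did not overlap and the log2 fold change was 6.21 ± 0.44 (adjusted p = 6.93e-06). TGFB2 had 3.96, 6.83 and 3.75 CPM at day 4 and already 102.8, 151.4 and 110.7 CPM in the day 6 CTRL libraries, with a log2 fold change of 4.65 ± 0.25 (adjusted p = 9.22e-07). It stayed high, at 110.7, 87.8 and 124.8 CPM at day 14. In all, 9 ligand genes were higher and 5 lower at day 14. GDF6 and GDF5, which are known from joint and skeletal development, had log2 fold changes of 3.91 and 3.50. BMP6 had -2.82, BMP2 -1.44, BMP5 -1.13, GDF7 -0.90 and BMP4 -0.88.

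INHA, the inhibin alpha subunit, stayed low. It had 0.654, 0.485 and 0 CPM at day 4 and 2.67, 1.54 and 2.88 CPM in the day 14 CTRL libraries, a log2 fold change of 2.65 ± 0.76 (adjusted p = 0.0177). This call was lost without day 14 CTRL replicate 1 or without replicate 3. INHBB, the activin B subunit, had no count in any day 4 or day 6 library and at most 0.794 CPM later, in a day 14 IND library. It passed the filter on low counts in no comparison with day 4.

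Antagonist genes moved in both directions, with 2 higher and 5 lower at day 14. LEFTY2, an inhibitor of NODAL, had 0.145, 0.0347 and 0.0646 CPM at day 4 and 0.828, 0.948 and 0.609 CPM in the day 14 CTRL libraries. The groups did not overlap, although the day 4 values rest on 4 counts or fewer in each library, and the log2 fold change was 3.25 ± 0.64 (adjusted p = 0.00235). LEFTY2 shares 14.3% of its 100-base stretches with other genes, among them LEFTY1, so their counts are uncertain. BMPER, an extracellular modulator of BMP, had 19.7, 17.1 and 16.4 CPM at day 4 and 2.51, 2.95 and 3.78 CPM in the day 14 CTRL libraries. All CTRL libraries of day 8 and later lay below day 4, with a log2 fold change of -2.53 ± 0.21 at day 14 (adjusted p = 1.44e-05). CHRD (chordin, which binds BMPs) had 23.1, 17.7 and 31.6 CPM at day 4 and 10.4, 7.72 and 6.9 CPM in the day 14 CTRL libraries, a log2 fold change of -1.52 ± 0.24 (adjusted p = 0.000698). GREM1, a BMP antagonist, was lowest early. It had 52.2, 54.6 and 56.5 CPM at day 4, 10.9, 11.6 and 12.8 CPM in the day 6 CTRL libraries, and 37, 24.4 and 35.4 CPM at day 14. The log2 fold change against day 4 was -2.22 ± 0.13 at day 6 (adjusted p = 1.74e-06) and -0.75 ± 0.16 at day 14 (adjusted p = 0.00339).

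Of the 10 receptor genes, 5 were higher and 1, ACVR2B, was lower at day 14. TGFBR3 (betaglycan, a co-receptor that presents TGF-beta2 and binds inhibin) had 17.9, 21.2 and 22.3 CPM at day 4 and 105.7, 69.5 and 51.3 CPM in the day 14 CTRL libraries, a log2 fold change of 1.89 ± 0.24 (adjusted p = 0.000176). The BMP type II receptor BMPR2 had 35.4, 42.3 and 25.2 CPM at day 4 and 109.6, 83.3 and 116.5 CPM at day 14 (log2 fold change 1.59 ± 0.20, adjusted p = 0.000181). The TGF-beta type II receptor TGFBR2 had 6.83, 8.14 and 5.4 CPM at day 4 and 20.8, 16.9 and 19.2 CPM at day 14 (log2 fold change 1.49 ± 0.19, adjusted p = 0.000227). For each of these 3 genes every day 14 CTRL library lay above every day 4 library.

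The intracellular and membrane inhibitors divided. SMAD7, an inhibitory SMAD of both branches, had 24.4, 29.3 and 30.8 CPM at day 4 and 69.9, 66.8 and 62.2 CPM in the day 14 CTRL libraries (log2 fold change 1.24 ± 0.12, adjusted p = 3.85e-05). BAMBI, a receptor-like decoy without a kinase domain, had 201.3, 215.8 and 260.7 CPM at day 4 and 111.1, 115.5 and 132.1 CPM at day 14 (log2 fold change -0.91 ± 0.13, adjusted p = 0.000335). SMAD6 was called on no day. All 4 ID genes, which encode inhibitors of basic helix-loop-helix factors, were higher at day 14. ID2 had 49.6, 59 and 42.8 CPM at day 4 and 161.2, 141.6 and 155.9 CPM at day 14 (log2 fold change 1.60 ± 0.14, adjusted p = 1.72e-05). The log2 fold changes of ID1, ID3 and ID4 were 0.72, 0.67 and 0.66. ID1 had 83.5, 104.7 and 69 CPM at day 4 and 140.7, 156.9 and 124.3 CPM at day 14. ID3 had 159.4, 144.7 and 187.8 CPM at day 4 and 252, 310.6 and 215.6 CPM at day 14. For all 4 genes the 2 groups did not overlap.

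**Figure D2:**
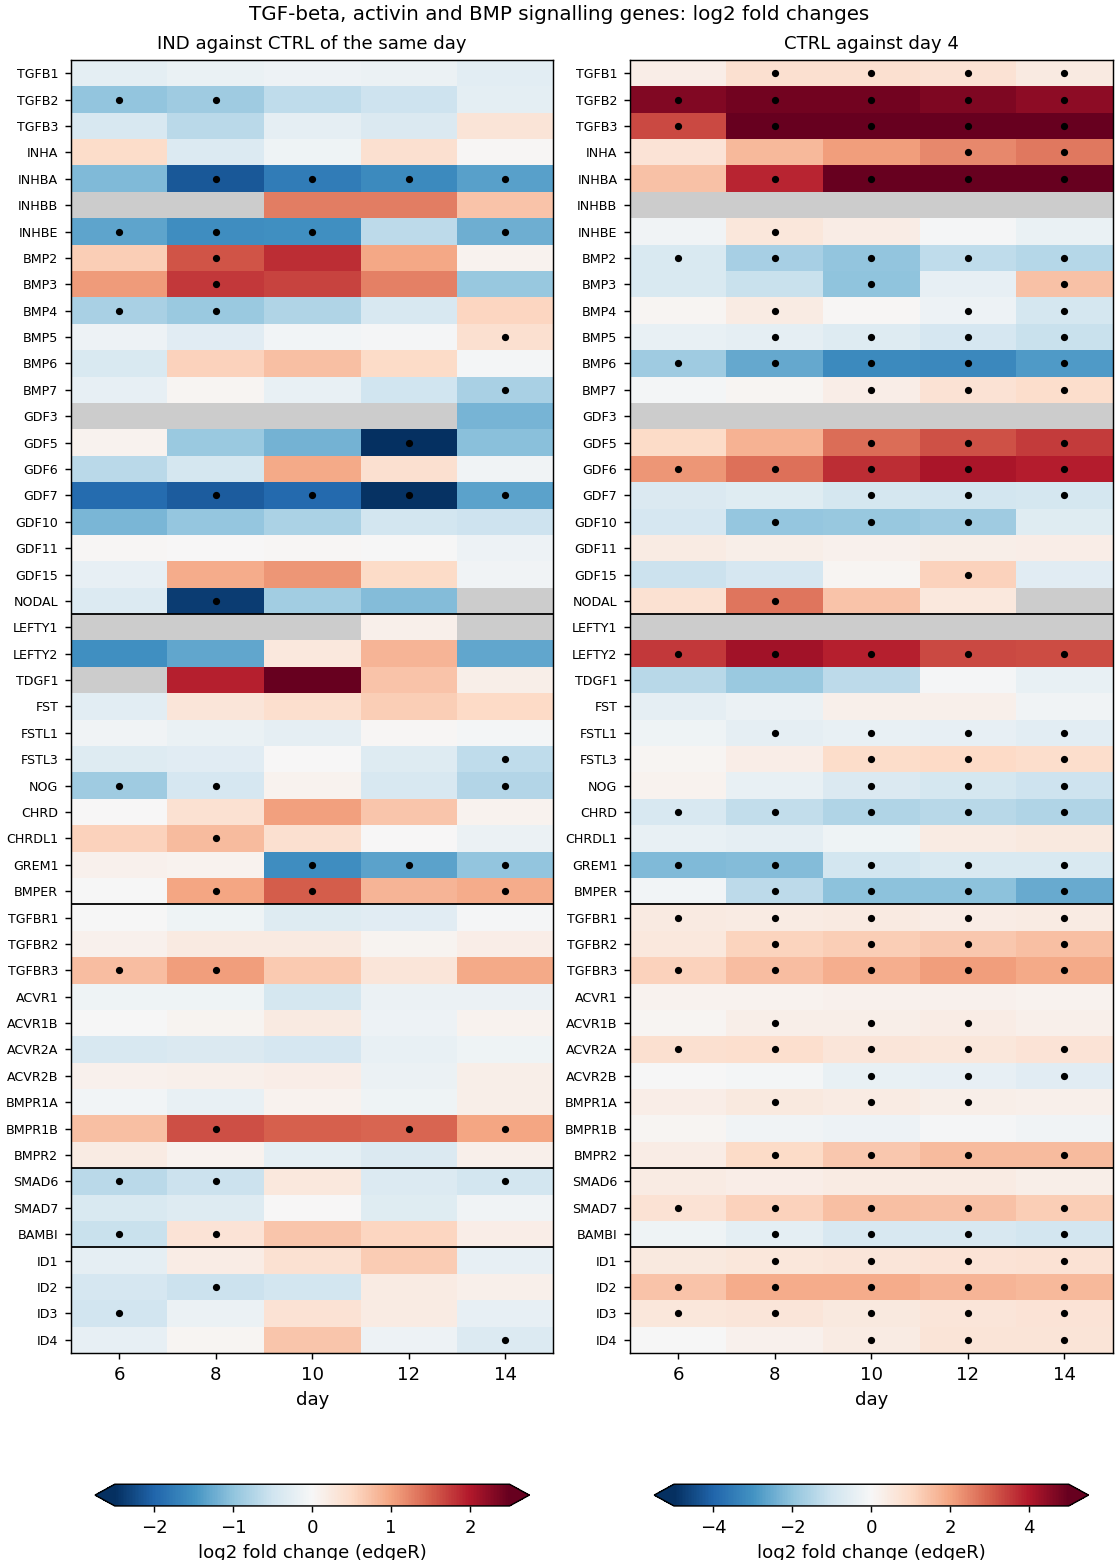
Log2 fold changes (colour, edgeR) of the 49 members (rows, grouped by role between black lines) on each day (x axis) for IND against CTRL (left) and CTRL against day 4 (right), with a black point where the adjusted p was under 0.05 and grey where the gene was not tested. On the left 46 cells carry a point, 33 of them lower in IND, and the colour scales of the panels differ. No such total was counted for all genes.

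The comparison of IND with CTRL of the same day asks which members changed with activation of FOXL2. In total 23 of the 49 members were called on at least 1 of the 5 days, 15 of them only lower, 7 only higher and 1, BAMBI, in both directions. Over the 5 days there were 46 calls, 33 lower and 13 higher in IND. Totals over the 5 days were not counted for all genes. These totals, and those by role below, thus have no share of all genes beside them, and the shares follow by day. At day 6, 1 member was higher and 7 lower of 45 tested, beside 3.66% of all genes (1.29% higher, 2.37% lower). At day 8, 7 were higher and 9 lower of 46, beside 14.2% (7.49% higher, 6.67% lower). At day 10, 1 was higher and 4 lower of 47, beside 2.03% (0.856% higher, 1.18% lower). At day 12, 1 was higher and 4 lower of 48, beside 5.42% (2.38% higher, 3.04% lower). At day 14, 3 were higher and 9 lower of 47, beside 8.43% (3.21% higher, 5.22% lower). The median log2 fold changes of the members were -0.21, -0.13, 0.083, -0.064 and -0.092 from day 6 to day 14, while those of all genes tested lay between -0.012 and 0.020. Each of these comparisons shares its CTRL libraries with the DIFF comparison of that day. At day 10 the number called rose to 23 without IND replicate 2, beside 3768 of 20650 genes in all. It fell to 0 or 1 without any other single library, beside 11 to 72 genes in all. At day 6 it was 14 without IND replicate 1, beside 915 of 19715. At day 8 it was 24 without IND replicate 3, beside 4732 of 20012. At day 12 it was 9 without IND replicate 1, beside 1979 of 20499. It was 3 there without CTRL replicate 2 or CTRL replicate 3, beside 496 of 20573 and 417 of 20588. At day 14 it was 7 without IND replicate 3, beside 905 of 19508.

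Markers of cell types moved with induction beside the members. The summed level of 7 coelomic epithelium and gonad markers was 380.4 to 510.8 CPM in the day 8 CTRL and 142.7 to 182.2 CPM in the day 8 IND libraries, with 4 of 5 tested markers lower. The sum of 6 neural crest and glia markers was 311.4 to 502.3 CPM in CTRL and 199.9 to 205.4 CPM in IND at day 8, with 3 of 6 lower, and the sum of 10 neuron markers was 458.4 to 818.6 CPM in CTRL and 315.4 to 391 CPM in IND at day 14, with 8 of 10 lower. The sum of 7 endothelium markers was 141.1 to 153.5 CPM in CTRL and 179.5 to 196.7 CPM in IND at day 8, with 5 of 7 higher. The sum of 5 endoderm markers was 67.6 to 159.9 CPM in CTRL and 192.1 to 407.4 CPM in IND at day 8, with none of the 5 called. At day 12, 2 of the 5 were higher in IND, and at day 14, 1 was. The sum of 5 intermediate mesoderm markers was 86.5 to 105.2 CPM in CTRL and 43.9 to 53 CPM in IND at day 8, with 1 of 4 tested markers higher and 2 lower. No pluripotent stem cell marker was called on any of the 5 days, with 3 or 4 of the 6 tested. Of the 7 muscle markers 1 was lower at day 6, 1 higher and 1 lower at day 8, and 2 of 4 tested lower at day 14. No marker of these lists was at the floor in a day 8 group except PRDM14 (pluripotent) and MYOD1 (muscle), and 3 of 5 blood markers were at the floor there. The granulosa list of 5 genes holds FOXL2 itself, and its sum was 19.2 to 25.4 CPM in CTRL and 273.6 to 347.2 CPM in IND at day 8, with CYP19A1 at the floor in IND. In bulk RNA fewer cells of a type and less RNA per cell cannot be told apart, and the part of these shifts in the results on the members was not tested.

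Among the 21 ligand genes 11 were called on at least 1 day, 8 of them only lower (TGFB2, INHBA, INHBE, BMP4, BMP7, GDF5, GDF7 and NODAL) and 3 only higher (BMP2, BMP3 and BMP5). INHBA (ENSG00000122641, GRCh38, minus strand of chromosome 7 from 41667168 to 41705834) was called lower in IND from day 8 to day 14. It had 2.62, 3.15 and 3.42 CPM in the day 8 CTRL and 0.822, 0.987 and 0.305 CPM in the day 8 IND libraries. At day 14 it had 19.6, 12.5 and 16.8 CPM in CTRL and 5.75, 6.28 and 7.07 CPM in IND. On each of these days every IND library lay below every CTRL library. The log2 fold change of IND against CTRL was -2.12 ± 0.37 at day 8 (adjusted p = 0.00289), -1.75 ± 0.25 at day 10 (adjusted p = 0.0236), -1.60 ± 0.32 at day 12 (adjusted p = 0.0235) and -1.35 ± 0.18 at day 14 (adjusted p = 0.000328). At day 6 it was -1.11 with an adjusted p of 0.288. The IND libraries there had 0.259 to 0.295 CPM and the CTRL libraries 0.574 to 0.638 CPM, without overlap. The day 10 call was lost without any 1 library other than IND replicate 2 (adjusted p up to 0.156), and the day 12 call without CTRL replicate 2, CTRL replicate 3, IND replicate 1 or IND replicate 3 (up to 0.0924).

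GDF7 (ENSG00000143869, plus strand of chromosome 2 from 20666664 to 20679245), a BMP-type ligand known from the roof plate of the neural tube, was called lower in IND on the same 4 days. It had 137, 89.1 and 134.8 CPM in the day 8 CTRL and 23.3, 29.5 and 31.9 CPM in the day 8 IND libraries. At day 12 it had 121.7, 86.7 and 82.2 CPM in CTRL and 12.1, 18.8 and 21.4 CPM in IND. In both cases the highest IND library was below the lowest CTRL library. The log2 fold change was -2.08 ± 0.20 at day 8 (adjusted p = 0.000808), -1.94 ± 0.18 at day 10 (adjusted p = 0.00808), -2.47 ± 0.24 at day 12 (adjusted p = 0.00147) and -1.35 ± 0.27 at day 14 (adjusted p = 0.0317). At day 6 the libraries had 133.8, 72.5 and 129.3 CPM in CTRL and 39.7, 27.7 and 20.7 CPM in IND, with a log2 fold change of -1.92 and an adjusted p of 0.0697. The call was lost at day 10 without CTRL replicate 1, CTRL replicate 2 or IND replicate 3 (adjusted p up to 0.0815), and at day 14 without CTRL replicate 2 or IND replicate 3 (up to 0.107). GDF7 shares 6.96% of its exonic bases with another annotated gene, and the libraries were not stranded.

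INHBE, the activin E subunit, was lower in IND on 4 days. It had 9.54, 12.5 and 14 CPM in the day 8 CTRL and 3.93, 4.6 and 3.66 CPM in the day 8 IND libraries, which did not overlap. The log2 fold change was -1.32 ± 0.22 at day 6 (adjusted p = 0.00191), -1.55 ± 0.18 at day 8 (adjusted p = 0.000217), -1.53 ± 0.26 at day 10 (adjusted p = 0.0408) and -1.23 ± 0.23 at day 14 (adjusted p = 0.00464). The day 10 call was lost without any 1 library other than IND replicate 2 (adjusted p up to 0.242). At day 12 the log2 fold change was -0.65 with an adjusted p of 0.0951.

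TGFB2 and BMP4 were called lower in IND at days 6 and 8. At days 10 and 12 their IND libraries also lay below all CTRL libraries, without passing the test. TGFB2 had 102.8, 151.4 and 110.7 CPM in the day 6 CTRL and 58.4, 63.2 and 61.1 CPM in the day 6 IND libraries, and at day 8 137.9, 142.2 and 130.4 CPM in CTRL and 70.6, 79.5 and 69.7 CPM in IND. The groups did not overlap, with log2 fold changes of -0.98 ± 0.13 (adjusted p = 0.000328) and -0.89 ± 0.075 (adjusted p = 3.07e-05). At day 14 the log2 fold change was -0.25 with an adjusted p of 0.243. TGFB2 shares 26.6% of its exonic bases with TGFB2-OT1. BMP4 (ENSG00000125378, minus strand of chromosome 14 from 53949736 to 53958761) had 214, 212 and 169.8 CPM in the day 6 CTRL and 103, 111.7 and 121.1 CPM in the day 6 IND libraries. At day 8 it had 233.6, 249.8 and 259.1 CPM in CTRL and 129.4, 127.2 and 132.7 CPM in IND. At day 14 the order was the other way in 8 of 9 pairs of libraries, with 83.7, 87.2 and 132.9 CPM in CTRL and 126.8, 149.2 and 162.3 CPM in IND. The log2 fold change was -0.81 ± 0.11 at day 6 (adjusted p = 0.000364), -0.92 ± 0.067 at day 8 (adjusted p = 1.02e-05), and 0.54 at day 14 with an adjusted p of 0.152. The difference of BMP4 between IND and CTRL depended on the day (interaction over the 30 libraries after day 4, adjusted p = 0.0205 with edgeR).

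**Figure D3:**
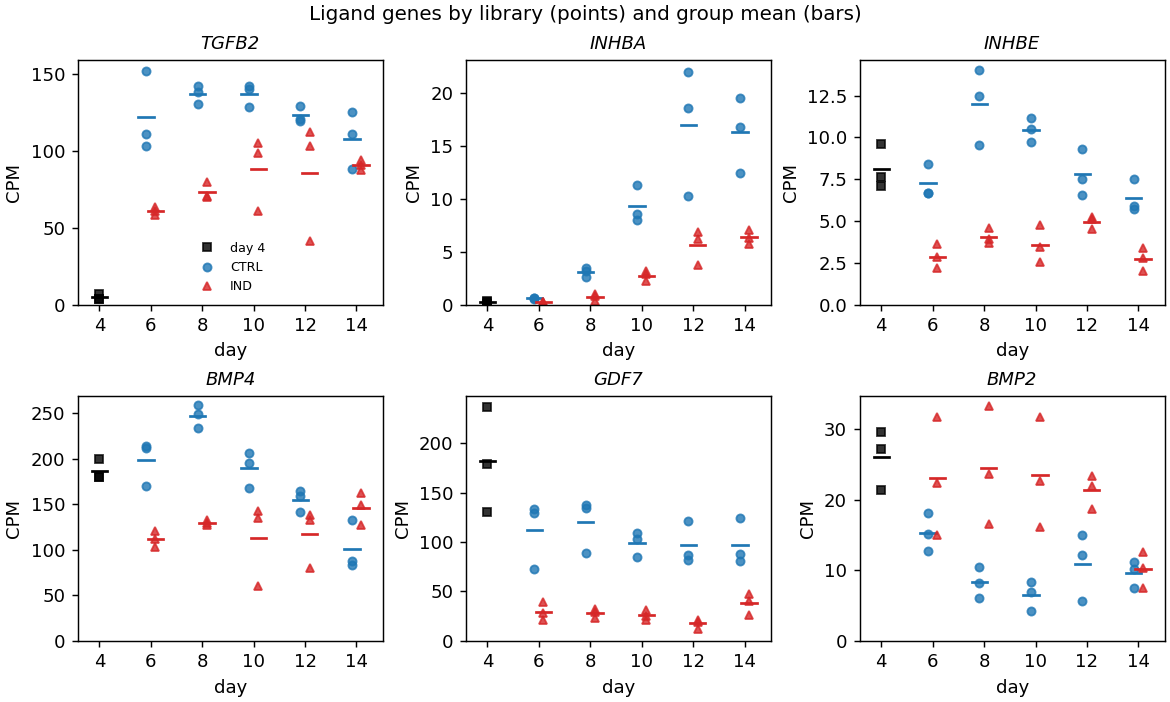
CPM (y axis, from 0) of 6 ligand genes in each library (points) by day (x axis) for day 4 (black), CTRL (blue) and IND (red), with group means as bars. The IND libraries of INHBA and GDF7 lie below all CTRL libraries of the same day from day 6 to day 14. Those of TGFB2 and BMP4 do so from day 6 to day 12.

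The remaining called ligands passed on 1 day each. BMP2, a BMP ligand, averaged 8.27 CPM in the day 8 CTRL and 24.5 CPM in the day 8 IND libraries and was called higher (log2 fold change 1.58 ± 0.30, adjusted p = 0.0175). At day 10 its log2 fold change was 1.85 with an adjusted p of 0.0555. BMP3 was higher at day 8 (log2 fold change 1.76, adjusted p = 0.00957) and BMP5 at day 14 (0.39, adjusted p = 0.0305). BMP7, known for its role in kidney and mesonephros development, was lower at day 14 with a log2 fold change of -0.82 (adjusted p = 0.000189). NODAL was lower at day 8 with a log2 fold change of -2.37 (adjusted p = 0.00743) at a mean of 1.79 CPM in CTRL and 0.346 CPM in IND. GDF5 was lower at day 12 with a log2 fold change of -2.60 (adjusted p = 0.00546) at a mean of 1.88 CPM in CTRL and 0.297 CPM in IND. GDF5 and NODAL share 35.2% and 41.2% of their exonic bases with other annotated genes. The call of BMP2 was lost without day 8 CTRL replicate 1, CTRL replicate 3 or IND replicate 2 (adjusted p up to 0.0848), and that of BMP5 without day 14 CTRL replicate 2, IND replicate 2 or IND replicate 3 (up to 0.141).

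The other 10 ligand genes (TGFB1, TGFB3, INHA, INHBB, BMP6, GDF3, GDF6, GDF10, GDF11 and GDF15) were called on no day. TGFB3 had 10.4, 13.6 and 8.61 CPM in the day 8 CTRL and 4.96, 7.01 and 8.26 CPM in the day 8 IND libraries, a log2 fold change of -0.68 with an adjusted p of 0.0575. INHA had log2 fold changes between -0.34 and 0.47 with adjusted p of 0.377 or more. INHBB, at levels under 1 CPM, could be tested from day 10 on and had log2 fold changes of 1.27, 1.29 and 0.72, each with an adjusted p of 0.357 or more. At day 14 it had 0.321, 0.456 and 0.284 CPM in CTRL and 0.578, 0.365 and 0.794 CPM in IND, which overlapped. GDF3 was tested at day 14 alone.

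Among the 11 genes of secreted antagonists and co-factors 5 were called. NOG (noggin, which binds BMPs and keeps them from their receptors) was lower in IND on 3 days. It had 23.1, 24.3 and 27.2 CPM in the day 6 CTRL and 11.1, 14.8 and 13.8 CPM in the day 6 IND libraries, and at day 14 9.4, 12.1 and 10.6 CPM in CTRL and 5.57, 7.84 and 5.77 CPM in IND. The groups did not overlap, with log2 fold changes of -0.89 ± 0.14 at day 6 (adjusted p = 0.001), -0.41 ± 0.11 at day 8 (adjusted p = 0.0247) and -0.74 ± 0.18 at day 14 (adjusted p = 0.0193). The day 8 call was lost without CTRL replicate 2, CTRL replicate 3, IND replicate 1 or IND replicate 2 (adjusted p up to 0.117), and the day 14 call without CTRL replicate 2, IND replicate 1 or IND replicate 3 (up to 0.105).

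GREM1 (ENSG00000166923, plus strand of chromosome 15 from 32717974 to 32745107) was not called at days 6 and 8, where the groups overlapped and the log2 fold changes were 0.10 and 0.087, and was lower in IND from day 10 to day 14. It had 31.1, 24.8 and 28.6 CPM in the day 10 CTRL and 9.68, 8.59 and 10.5 CPM in the day 10 IND libraries. At day 14 it had 37, 24.4 and 35.4 CPM in CTRL and 15.5, 16.9 and 16.3 CPM in IND. From day 10 to day 14 the IND libraries lay between 8.59 and 16.9 CPM, below all CTRL libraries of the same day. The log2 fold change was -1.55 ± 0.16 at day 10 (adjusted p = 0.00893), -1.34 ± 0.28 at day 12 (adjusted p = 0.027) and -0.99 ± 0.15 at day 14 (adjusted p = 0.0011). The difference depended on the day (interaction, adjusted p = 0.00185). The day 10 call was lost without any 1 library other than IND replicate 2 (adjusted p up to 0.095), and the day 12 call without any 1 library other than CTRL replicate 1 (up to 0.166).

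BMPER (ENSG00000164619, plus strand of chromosome 7 from 33904308 to 34156356) was higher in IND than in CTRL on 3 days, and in CTRL it was lower than at day 4 from day 8. At day 6 the groups overlapped, with a log2 fold change of -0.019. At day 8 it had 7.61, 6.23 and 7.81 CPM in CTRL and 13.8, 14.8 and 14.1 CPM in IND. At day 10 it had 4.78, 3.4 and 4.51 CPM in CTRL and 9.85, 14.1 and 12.3 CPM in IND, and the groups did not overlap on either day. In IND against CTRL the log2 fold change was 0.99 ± 0.13 at day 8 (adjusted p = 0.000618), 1.52 ± 0.23 at day 10 (adjusted p = 0.0298) and 0.92 ± 0.21 at day 14 (adjusted p = 0.0151), and the difference depended on the day (interaction, adjusted p = 0.0203). The day 10 call was lost without any 1 library other than IND replicate 2 (adjusted p up to 0.171), and the day 14 call without CTRL replicate 1 or IND replicate 3 (up to 0.0821).

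CHRDL1, a chordin-like BMP binding protein, was higher at day 8 (log2 fold change 0.79, adjusted p = 0.0123), and FSTL3, which binds activin, was lower at day 14 (-0.64, adjusted p = 0.00208). The CHRDL1 call was lost without day 8 CTRL replicate 1, CTRL replicate 3 or IND replicate 1 (adjusted p up to 0.0801). FST (follistatin, the activin-binding protein) was called on no day. It had 41.5, 57.5 and 55.1 CPM in the day 12 CTRL and 91.9, 76.5 and 68.1 CPM in the day 12 IND libraries, which did not overlap, with a log2 fold change of 0.62 ± 0.17 and an adjusted p of 0.0679. CHRD at day 12 had a log2 fold change of 0.69 with an adjusted p of 0.0597. LEFTY1, LEFTY2, TDGF1 and FSTL1 were not called on any day.

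Of the 10 receptor genes 2 were called, both higher in IND. TGFBR3 had 35.1, 52.5 and 48.6 CPM in the day 6 CTRL and 68.2, 79.2 and 82.1 CPM in the day 6 IND libraries, and at day 8 56.7, 71.9 and 52 CPM in CTRL and 110.3, 138.3 and 120.9 CPM in IND. The groups did not overlap, with log2 fold changes of 0.77 ± 0.13 (adjusted p = 0.00334) and 1.05 ± 0.13 (adjusted p = 0.000707). At day 14 the log2 fold change was 0.96 ± 0.30 with an adjusted p of 0.133. BMPR1B, a BMP type I receptor, had 5.24, 9.67 and 4.71 CPM in the day 8 CTRL and 23.1, 21.9 and 14.5 CPM in the day 8 IND libraries. At day 12 it had 4.82, 8.76 and 7.84 CPM in CTRL and 16.4, 23.6 and 18.3 CPM in IND. Every IND library lay above every CTRL library on both days. By edgeR the log2 fold change was 1.61 ± 0.31 at day 8 (adjusted p = 0.0162), 1.45 ± 0.24 at day 12 (adjusted p = 0.012) and 0.98 ± 0.21 at day 14 (adjusted p = 0.0111). The day 8 call was lost without CTRL replicate 1, IND replicate 1 or IND replicate 2 (adjusted p up to 0.0684), and the day 14 call without IND replicate 2 (0.0512). TGFBR1, TGFBR2, ACVR1, ACVR1B, ACVR2A, ACVR2B, BMPR1A and BMPR2 were called on no day. In CTRL against day 4 BMPR1B was not called on any day, whereas TGFBR3 was higher on all 5.

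**Figure D4:**
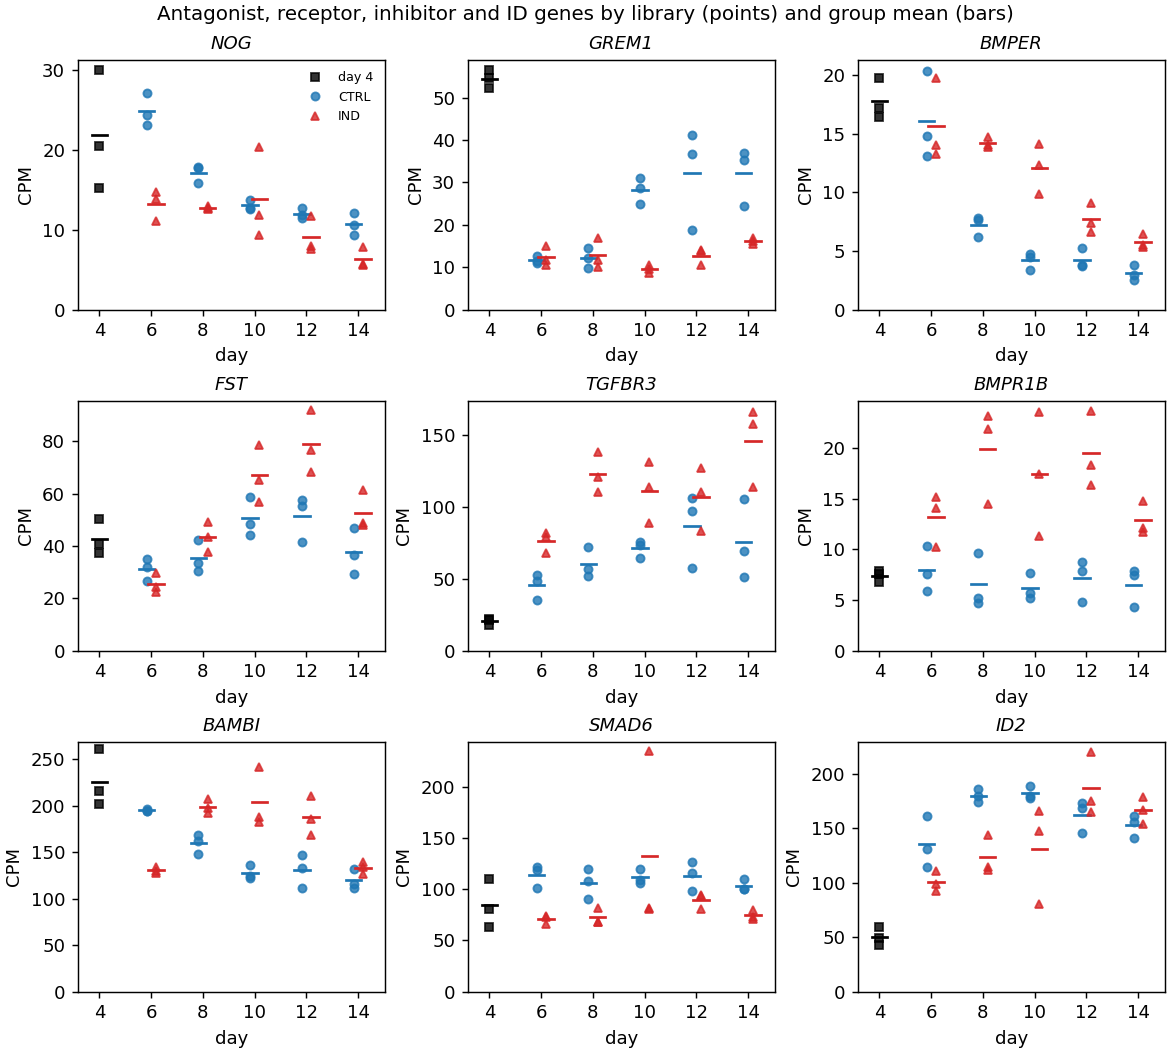
CPM (y axis, from 0) of 9 antagonist, receptor, inhibitor and ID genes in each library (points) by day (x axis) for day 4 (black), CTRL (blue) and IND (red), with group means as bars. BAMBI is lower in all IND libraries at day 6 and higher at day 8, and GREM1 separates from day 10.

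BAMBI (ENSG00000095739, plus strand of chromosome 10 from 28677342 to 28682939) changed direction. Its printed stretch holds GGCGCC 3 times, the last of them across the annotated gene start. A window of ACVR1B, which was called between IND and CTRL on no day, holds it 4 times. BAMBI had 196.2, 194.3 and 194.7 CPM in the day 6 CTRL and 127.6, 134.3 and 129.5 CPM in the day 6 IND libraries. At day 8 it had 147.7, 168.3 and 162.2 CPM in CTRL and 197.9, 207.1 and 192 CPM in IND. IND thus lay below CTRL at day 6 and above it at day 8, without overlap on either day. In IND against CTRL the log2 fold change was -0.56 ± 0.089 at day 6 (adjusted p = 0.0012) and 0.33 ± 0.072 at day 8 (adjusted p = 0.0106). It was 0.68 at day 10 and 0.53 at day 12, with adjusted p of 0.0758 and 0.0643. The interaction of day and induction had an adjusted p of 7.18e-05. The day 8 call was lost without CTRL replicate 1, CTRL replicate 3 or IND replicate 2 (adjusted p up to 0.0718).

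The window of SMAD6 holds GTCTAGAC 12 bases before the RefSeq start and across the annotated gene start. SMAD6, the inhibitory SMAD of the BMP branch, was lower in IND on 3 days. It had 118.8, 121.9 and 101.4 CPM in the day 6 CTRL and 65.8, 74 and 73.4 CPM in the day 6 IND libraries. At day 14 it had 109.6, 100.1 and 100.7 CPM in CTRL and 70.8, 79.9 and 73 CPM in IND, and the groups did not overlap. By edgeR the log2 fold change was -0.67 ± 0.10 at day 6 (adjusted p = 0.00103), -0.53 ± 0.11 at day 8 (adjusted p = 0.00964) and -0.47 ± 0.085 at day 14 (adjusted p = 0.00325). At day 10, IND replicate 2 had 234.9 CPM while the other IND libraries had 81 and 81.5 CPM and the CTRL libraries 106.2 to 119.5 CPM. None of the 3 calls held in the fit over all 33 libraries, where the adjusted p were 0.204, 0.229 and 0.45. SMAD7 was called on no day, with log2 fold changes between -0.38 and 0.007.

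The ID genes gave few calls. ID2 was lower at day 8, with 174.6, 186.1 and 179.5 CPM in CTRL and 114.6, 111.5 and 144.2 CPM in IND, which did not overlap (log2 fold change -0.53 ± 0.092, adjusted p = 0.00295). ID3 was lower at day 6 with 258.3, 245.7 and 218.8 CPM in CTRL and 148.3, 178.9 and 185.6 CPM in IND (log2 fold change -0.48 ± 0.11, adjusted p = 0.0176). ID4 was lower at day 14 with a log2 fold change of -0.34 (adjusted p = 0.0271). The ID3 call was lost without CTRL replicate 1, IND replicate 1 or IND replicate 2 (adjusted p up to 0.0775), and the ID4 call without any 1 library other than CTRL replicate 1 (up to 0.153). ID1 was called on no day, with 121.1, 134.8 and 152.9 CPM in the day 12 CTRL and 255.6, 219.4 and 159.4 CPM in the day 12 IND libraries (log2 fold change 0.64, adjusted p = 0.0799).

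Whether the difference between IND and CTRL varied between days was tested over the 30 libraries after day 4. It did for 5 of the 49 members (BMP4, GDF6, GREM1, BMPER and BAMBI), beside 2.38% of all genes. GDF6 was called on no single day. It had 16.1, 11.5 and 15.6 CPM in the day 6 CTRL and 11.4, 7.56 and 7.82 CPM in the day 6 IND libraries, and at day 10 36.1, 44 and 40.4 CPM in CTRL and 50.4, 115.7 and 65.3 CPM in IND. IND lay below CTRL at day 6 and above it at day 10 without overlap, and the interaction had an adjusted p of 0.0195. The library at 115.7 CPM is the one that stood apart, and without it the adjusted p was 0.0352.

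The other genes of the pathway were given by 6 lists with 71 genes. In IND against CTRL, 1 was higher and 4 lower of 61 tested at day 6, beside 3.66% of all genes called. At day 8, 10 were higher and 8 lower of 63, beside 14.2%. At day 10, 1 was higher and 3 lower of 65, beside 2.03%, and at day 12, 2 were higher and 7 lower of 66, beside 5.42%. At day 14, 4 were higher and 13 lower of 65, beside 8.43%. In the list of 10 other SMAD target genes, 9 were tested, and 4 were lower at day 6, 1 higher and 5 lower at day 8, 2 lower at day 10, 1 higher and 3 lower at day 12, and 5 lower at day 14. MSX1, a homeobox gene and BMP target, had 134.3, 119.9 and 141.3 CPM in the day 6 CTRL and 64.8, 54 and 47.2 CPM in the day 6 IND libraries, without overlap. Its log2 fold change was -1.24 ± 0.12 at day 6 (adjusted p = 1.33e-05) and -0.97 ± 0.15 at day 14 (adjusted p = 0.00279). MSX2, a further BMP target, had log2 fold changes of -0.84 ± 0.10 at day 6 (adjusted p = 0.000161) and -0.52 ± 0.093 at day 14 (adjusted p = 0.00294). MSX1 and MSX2 are also known from neural crest, 3 of whose 6 markers were lower in IND at day 6, and the part of those cells in this difference was not tested.

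**Figure D5:**
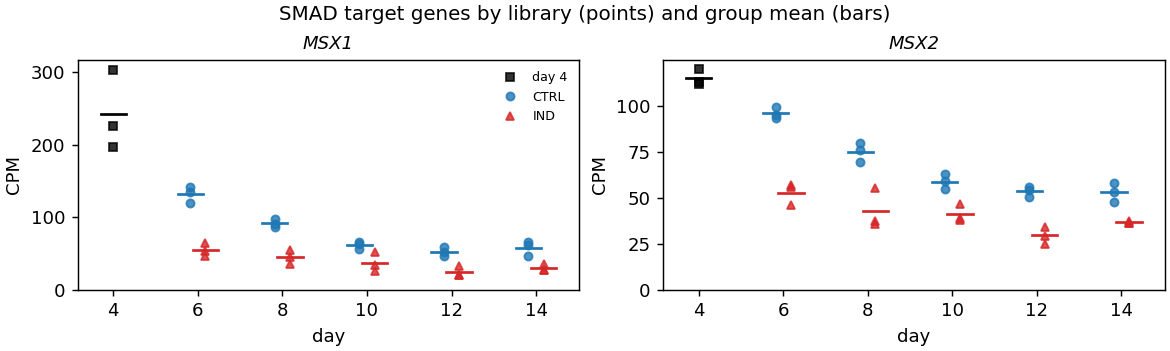
CPM (y axis, from 0) of the SMAD target genes MSX1 and MSX2 in each library (points) by day (x axis) for day 4 (black), CTRL (blue) and IND (red), with group means as bars. At day 6 all IND libraries lie below all CTRL libraries for both genes.

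Of the 6 genes of receptor-activated SMADs and SMAD4, SMAD9 was higher in IND at day 8 (log2 fold change 0.66, adjusted p = 0.00913) and day 14 (0.49, adjusted p = 0.0172), SMAD3 was higher at day 14 (0.75, adjusted p = 8.56e-05), and SMAD1, SMAD2, SMAD4 and SMAD5 were called on no day. The SMAD9 calls were lost in some alternatives, with adjusted p up to 0.0665 at day 8, where leaving out CTRL replicate 1 was among them, and 0.308 at day 14. In the list of 25 ligand binding and release proteins, LTBP4, which binds latent TGF-beta, was lower on 3 days and NBL1, a BMP antagonist, was higher on 3 days. At day 8 their log2 fold changes were -0.57 ± 0.076 (adjusted p = 0.000618) and 1.28 ± 0.24 (adjusted p = 0.00772). ACVRL1, an endothelial type I receptor in the list of 8 other receptors, was higher at day 8 (1.11 ± 0.21, adjusted p = 0.00479) and day 10 (1.93 ± 0.29, adjusted p = 0.0276). Of 7 endothelium markers 1 was lower at day 6. In that list 5 were higher at day 8, 2 at day 10, 3 at day 12 and none at day 14. The part of endothelial cells in the ACVRL1 differences was not tested. The day 10 call of ACVRL1 was lost without any 1 library other than IND replicate 2 (adjusted p up to 0.207 over all alternatives). Of the 10 other ligands of the family, BMP10 and MSTN were lower at day 14, and of the 12 intracellular regulators LDLRAD4 and PMEPA1 were each lower on 1 day. In CTRL against day 4, 34 of 64 tested genes of the 6 lists were higher and 9 lower at day 14, beside 47.6% of all genes called.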

How the data were processed

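RNA-seq counts and FPKM of 58735 genes in 33 libraries were used. The deposited counts and FPKM were made by the authors from non-directional libraries with fastp 0.23.2, HISAT2 2.0.5 and featureCounts 1.5.0-p3 (per the submitters' processing notes, GRCh38). Since strand was not kept, reads of overlapping genes cannot be told apart. Groups came from the sample titles. The deposited counts were tested with edgeR 4.0.16 (R 4.3.3), quasi-likelihood with robust fit, low-count filter by group and TMM, on the 6 libraries of each comparison, with Benjamini-Hochberg adjustment over all genes tested and a threshold of 0.05. The interaction was an F-test of 4 terms over 30 libraries. CPM used effective library sizes over all 33 libraries.

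The members and lists were chosen with earlier results of these data known. Library values are given for members called between IND and CTRL on at least 2 days with a group mean of at least 1 CPM, for up to 3 members per role with the largest change between day 4 and day 14, and for INHA, INHBA, INHBB, FST and BMP4. GDF6, and ID1 in IND against CTRL, were added after their values were seen. Other genes come from 6 pathway lists, up to 3 per list by days called, and 1 gene this rule named is not reported here. Marker lists covered pluripotent, intermediate mesoderm, coelomic epithelium and gonad, granulosa, neuron, neural crest and glia, endothelium, muscle, blood and endoderm cells.

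The alternatives tried were RLE scaling, DESeq2 1.42.0, leaving out the low-count filter, keeping genes that averaged 50 counts or more, requiring a change of 1 or more on the log2 scale as well, fitting all 33 libraries at once, the replicate block, limma-trend (limma 3.58.1) on log2(FPKM + 1) and log2(FPKM + 0.1), and each library left out. Library totals were 23940837 to 51912815 counts, and the floor of 3 counts covers counting error only. The scripts were tested on simulated data.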

Additional observations from a re-analysis of the deposited data

Results flagged for a closer look

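The difference between IND and CTRL varied between days in 5 members by the interaction test (edgeR, adjusted over all genes). BAMBI had an adjusted p of 7.18e-05, with IND below CTRL in all pairs of libraries at day 6 and above it in all pairs at days 8, 10 and 12. GREM1 had an adjusted p of 0.00185, with overlapping groups at days 6 and 8 and IND below CTRL from day 10. BMPER had an adjusted p of 0.0203, with overlapping groups at day 6 and IND above CTRL from day 8. BMP4 had an adjusted p of 0.0205, with IND below CTRL at days 6 and 8 and above it in 8 of 9 pairs at day 14. GDF6 had an adjusted p of 0.0195, with IND below CTRL at days 6 and 8 and above it at day 10. Without day 10 IND replicate 2, an alternative chosen after seeing the data, the adjusted p were 1.46e-05 for BAMBI, 0.0019 for GREM1, 0.018 for BMPER, 0.000801 for BMP4 and 0.0352 for GDF6. Over 8 alternatives BAMBI passed in 8 (adjusted p up to 0.0253), BMP4 in 6 (up to 0.524), GREM1 in 6 (up to 0.145), BMPER in 5 (up to 0.276) and GDF6 in 5 (up to 0.329).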

How the results depend on the processing

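None of the 46 called differences between IND and CTRL reversed under any alternative. Over 688 results under alternatives, 564 kept the call and 124 lost it, and 11 differences kept it under every alternative. Of the 688, 46 apply a limit on the size of the log2 change to the main fit. These are not refits and could not reverse a call. All 46 kept it with RLE size factors and with DESeq2, 33 in the fit over 33 libraries, and 22 with a limit of 1 on the size of the log2 change.

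The number of members called between IND and CTRL moved by over 1.5 times as follows, and the cause was not tested unless the setting itself removes genes or samples. At day 6 (8 members) it was 1 with that fold limit, 16 without the filter and 13 with DESeq2. Of all genes 274 of 19133, 1209 of 34501 and 1001 of 34500 were called there, against 700 of 19133 in the main test. At day 8 (16) the number of members was 8 with that fold limit and 26 without the filter. All genes gave 1078 of 19433 and 3799 of 35505, against 2752 of 19433. At day 10 (5) the number of members was 10 with DESeq2, 3 with limma-trend at either pseudocount and 13 in the fit over 33 libraries. All genes gave 1787 of 35704, 390 and 350 of 19858, and 3325 of 22613, against 404 of 19858. At day 12 (5) the members were 12 without the filter, 13 with DESeq2, 3 with limma-trend at either pseudocount and 10 in the fit over 33 libraries. All genes gave 1878 of 35883, 1956 of 35881, 741 and 803 of 19924, and 1556 of 22613, against 1080 of 19924. At day 14 (12) the members were 3 with the fold limit and 7 in the fit over 33 libraries. All genes gave 697 of 19055 and 861 of 22613, against 1606 of 19055. Between CTRL and day 4 the fold limit left 8, 16, 17, 18 and 19 members from day 6 to day 14. Of all genes it left 1663, 2853, 3900, 4431 and 4593. The interaction (5) gave 21 without the filter and 9 with DESeq2. All genes gave 2360 of 42767 and 1283 of 42714, against 533 of 22442.

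With single libraries left out, the members called between IND and CTRL ranged from 7 to 14 at day 6, 12 to 24 at day 8, 0 to 23 at day 10, 3 to 9 at day 12 and 7 to 13 at day 14. The calls among all genes ranged from 348 to 915, 1321 to 4732, 11 to 3768, 417 to 1979 and 905 to 1987. Between CTRL and day 4 the members called ranged from 11 to 19, 23 to 34, 28 to 38, 27 to 37 and 31 to 38. Those of all genes ranged from 2312 to 5673, 4506 to 8722, 6247 to 10479, 7129 to 10805 and 6750 to 9865. The interaction ranged from 1 to 7, with 1 without all libraries of replicate 1 or of replicate 3, and 7 without day 10 IND replicate 2. All genes there gave 43 of 22562, 120 of 22635 and 1016 of 23216.

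Replicate numbers did not pair the samples. Deviations of same-numbered samples correlated between -0.11 and 0.138 over 30 pairs of libraries, 2 of them over 0.1. With the replicate block 13 members were called at day 6 and 0 at day 10 between IND and CTRL, and 23 at day 6 between CTRL and day 4. Of all genes 922 of 19133, 15 of 19858 and 4791 of 18310 were called there.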
